A study of Rattus norvegicus with 11 samples.

Results

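A set of 10 markers of blood vessel endothelium, the cell layer that lines vessels, was followed in rat dorsal root ganglia: Pecam1, Cdh5, Flt1, Kdr, Tek, Tie1, Vwf, Cldn5, Emcn and Egfl7. They were chosen by symbol as widely used markers of endothelial cells. Of the 10, 9 had a row among the 16811 genes of the table and 8 were above 0. Cldn5, the main claudin of brain endothelium, was listed at 0 in all 11 libraries, and Kdr, the receptor VEGFR2, was not analysed here. In all, 1970 rows were at 0 in every library, and whether such a row means an absent transcript is not known.

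The study asked how the histone methyltransferase G9a acts on potassium channel genes after nerve injury, and sequenced total RNA of ganglia, which hold the cell bodies of sensory neurons. All rats were of the Sprague-Dawley strain. The group SNL plus UNC0638 (n = 3) had a spinal nerve ligation, a model of neuropathic pain, and was then given UNC0638, an inhibitor of G9a and the related enzyme GLP; its ganglia were from the left side. The group SNL (n = 4) had the ligation alone, with ganglia from the left side, and the group Sham (n = 4) served as the control, with ganglia from the right side. Side and ligation cannot be told apart, and no group received UNC0638 without ligation. The labels give no age, dose, route or time after surgery. RNA was extracted with either of a pair of reagents, and which library had which is not given. The labels do not say that replicates were separate animals, so a p-value measures only the spread among these libraries, which may be technical.

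Endothelial cells are held together by cadherin junctions, take up signals for growth from vascular endothelial growth factors (VEGF) and angiopoietins, and release clotting and adhesion proteins into the blood. In sensory ganglia the capillaries around the neuronal cell bodies are known to be more permeable than those of the nerve. After injury of a nerve, endothelial cells are known to sprout and, when activated, to display selectins that catch leukocytes.

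The table holds 1 value per gene and library: counts of reads brought by the authors to the same library size, called scaled counts here. Totals were 9450045 to 11347920 per library, and the reads behind them, estimated from the step between low values, were 6127898 to 24367778. Behind a marker's value stood an estimated 29 to 1775 reads. Replicates of a group differed more than counting noise gives: averaged over genes, their squared deviation was 5.88 to 78.4 times the counting variance. This average is over all genes, not the markers. Sensory neuron genes, the check of the labelled tissue, summed to 98335 to 134777 scaled counts in SNL plus UNC0638, 153178 to 188751 in SNL and 238655 to 281481 in Sham. SNL plus UNC0638 replicate 1 held 77594 scaled counts of skeletal muscle genes, against 148 to 554 in every other library. The same library stood apart in 7 axon injury genes, which summed to 3687 scaled counts there and 10370.1 and 12452 in replicates 2 and 3. The sums were 23492 to 35668 in SNL and 3794 to 5023 in Sham, so that its sum lay just below the Sham range. Single genes differed: Atf3 (265), Jun (1883), Sox11 (70.9) and Npy (20.6) lay above every Sham library. Gap43 (1396) lay below every Sham library, Gal lay within the Sham range, and Sprr1a was at 0 there and in Sham. Replicate 3 of Sham and replicate 3 of SNL departed from their groups in a like way across genes (r = 0.431). Counts are therefore also given without them. SNL plus UNC0638 replicate 1, the library with high muscle genes, departed in a like way to SNL replicate 3 too (r = 0.429). The test covered the 12085 genes that reached 10 scaled counts in 3 or more libraries, and a gene was called at an adjusted p under 0.05. Differences and their SE are in log2 of the scaled count plus 1.

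After ligation, 5 of the 8 measured markers rose and none fell: Tek, Cdh5, Tie1, Vwf and Pecam1 were higher in SNL than in Sham by 0.61 to 1.25 on the log2 scale. Across all tested genes 48.2% were called in this comparison, 24.8% higher and 23.4% lower. All 8 differences were positive, with a median of 0.69, while the median over all tested genes was -0.00. With UNC0638, Flt1 and Egfl7 rose above SNL, Tek fell below it, and the other 5 did not pass the test. Of all tested genes, 27.8% were called there, 13.5% higher and 14.3% lower. Calls in both directions among 8 markers are thus not far from the share of all genes. Against Sham, SNL plus UNC0638 had 6 markers called higher and none lower, beside 25.5% and 26% of all tested genes (51.5% in all), and the median marker difference was 1.00. In bulk tissue, more endothelial cells and more RNA per endothelial cell cannot be told apart.

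**Figure D1:**
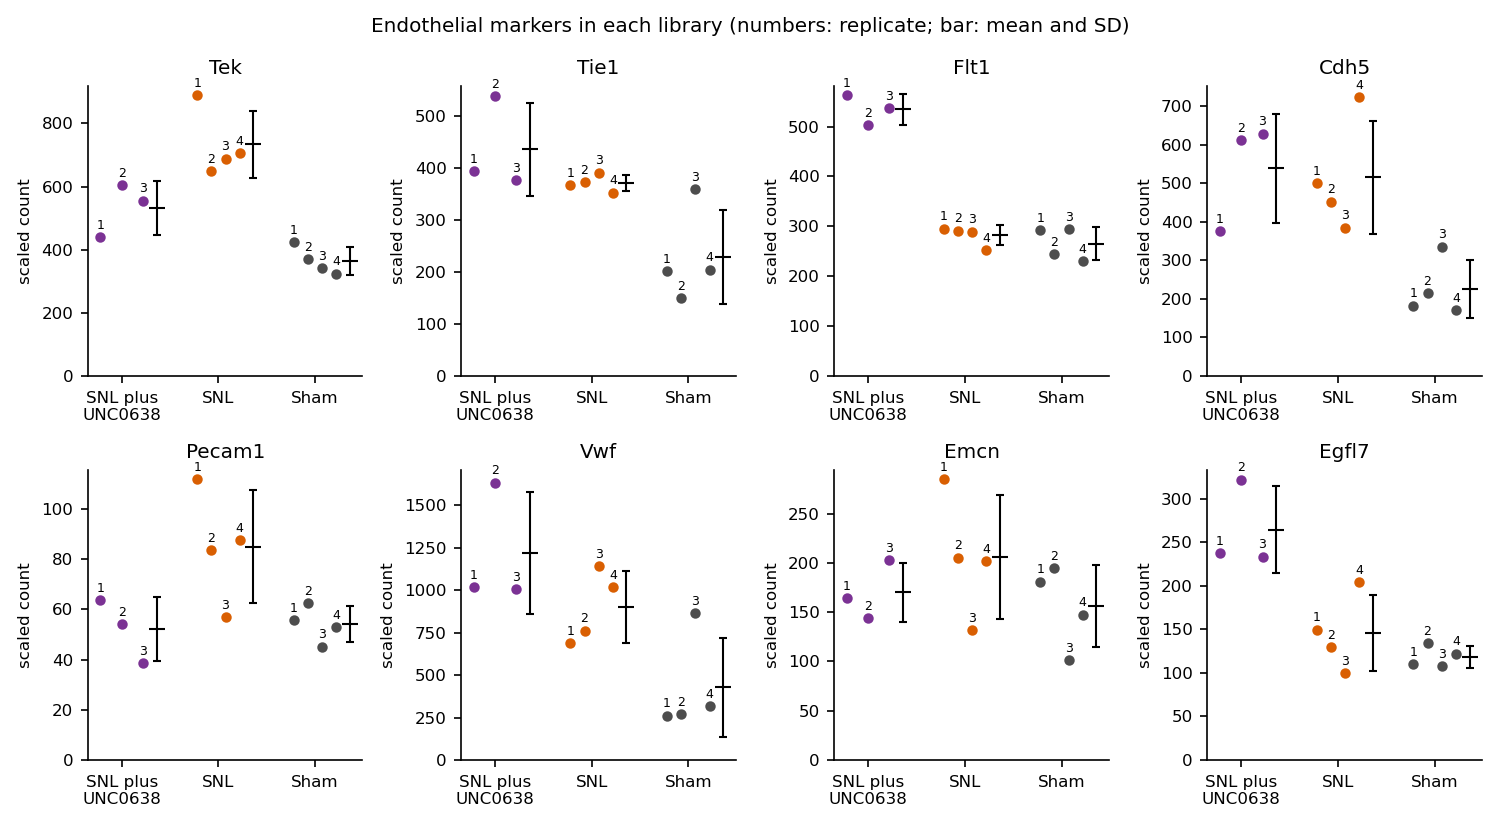
Scaled counts of the 8 measured endothelial markers in each library, with points for libraries and bars for the mean and SD of SNL plus UNC0638 (n = 3), SNL (n = 4) and Sham (n = 4). Flt1 and Egfl7 stand apart in SNL plus UNC0638, whereas Tek is highest in the 4 SNL libraries.

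Tek encodes TIE2, the receptor for angiopoietins, which steadies resting vessels. It had 439, 603 and 555 scaled counts in SNL plus UNC0638, 889.8, 649, 689 and 705 in SNL, and 423, 370.4, 341 and 324 in Sham. The 3 groups did not overlap: every SNL library lay above every SNL plus UNC0638 library, and those lay above every Sham library. Tek was 2.01-fold higher in SNL than in Sham (log2 difference 1.00, SE 0.14, adjusted p = 0.000233). In SNL plus UNC0638 it was 1.38-fold lower than in SNL (log2 difference -0.46, SE 0.15, adjusted p = 0.0402). This was the only marker called lower in any of the 3 comparisons, and the call was lost when any of 6 libraries was left out (adjusted p 0.0510 to 0.148; replicate 1 or 3 of SNL plus UNC0638, 1, 2 or 4 of SNL, or 2 of Sham). Against Sham, Tek was 1.46-fold higher with UNC0638 (adjusted p = 0.0113); without replicate 2 of that group the adjusted p was 0.0582.

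Tie1, the sister receptor that modulates TIE2 signalling, had 393, 537 and 375 scaled counts in SNL plus UNC0638. The SNL libraries had 367, 373, 390.5 and 352, and the Sham libraries 202, 149, 358 and 204. Sham replicate 3 reached the SNL range, while the other 3 Sham libraries lay below it. Tie1 rose 1.62-fold in SNL over Sham (log2 difference 0.77, SE 0.22, adjusted p = 0.0138). SNL plus UNC0638 differed from SNL by 0.21 (SE 0.24, adjusted p = 0.517), with libraries that overlapped, and was 1.91-fold above Sham without overlap (adjusted p = 0.00538).

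Flt1 encodes VEGFR1, a receptor for VEGF-A, VEGF-B and placental growth factor that also acts as a decoy. It had 563, 503 and 537 scaled counts in SNL plus UNC0638, against 295, 292, 289 and 252 in SNL and 292, 244, 294 and 231 in Sham. The SNL and Sham libraries shared a range, and all 3 SNL plus UNC0638 libraries lay above it. With UNC0638, Flt1 was 1.89-fold higher than in SNL (log2 difference 0.92, SE 0.12, adjusted p = 0.000845) and 2.01-fold higher than in Sham (adjusted p = 0.000153). The call against SNL held in each of 26 alternative settings. Ligation alone gave a log2 difference of 0.09 (95% interval -0.16 to 0.34, adjusted p = 0.529).

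Cdh5 encodes VE-cadherin, the adhesion molecule of endothelial junctions. It had 375, 611 and 628 scaled counts in SNL plus UNC0638, 500.4, 452, 384 and 723 in SNL, and 182, 215, 335 and 171 in Sham. Both ligated groups lay above all Sham libraries and overlapped each other. Cdh5 rose 2.28-fold in SNL over Sham (log2 difference 1.20, SE 0.25, adjusted p = 0.00261) and 2.38-fold in SNL plus UNC0638 over Sham (adjusted p = 0.00292). The difference of SNL plus UNC0638 from SNL was 0.07 (SE 0.27, adjusted p = 0.870), and its sign turned when SNL replicate 3 or SNL plus UNC0638 replicate 2 or 3 was left out.

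Pecam1 encodes CD31, an adhesion molecule of endothelial contacts that platelets and leukocytes also carry. It had 63.7, 54.1 and 38.7 scaled counts in SNL plus UNC0638. The SNL libraries had 112, 83.6, 57.1 and 87.6, and the Sham libraries 55.6, 62.5, 45.2 and 53.0. SNL replicate 3 lay within the Sham range and the other SNL libraries above it. Pecam1 was 1.57-fold higher in SNL than in Sham (log2 difference 0.61, SE 0.23, adjusted p = 0.0454), a call lost in 8 of the 11 fits that left out a library (adjusted p 0.0508 to 0.135; replicate 2 of SNL plus UNC0638, 1, 2 or 4 of SNL, or any Sham library). Between SNL plus UNC0638 and SNL the difference was -0.68 (95% interval -1.23 to -0.14, adjusted p = 0.0596), and without Sham replicate 3 and SNL replicate 3 it was -0.86 (adjusted p = 0.0101).

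Vwf encodes von Willebrand factor, a clotting protein that endothelial cells store and release. SNL plus UNC0638 libraries had 1019, 1632 and 1007 scaled counts, SNL libraries 687, 761, 1141 and 1019, and Sham libraries 260.1, 268, 865 and 315. Sham replicate 3 lay within the SNL range, and the other 3 Sham libraries lay below it. Vwf rose 2.11-fold in SNL over Sham (log2 difference 1.25, SE 0.35, adjusted p = 0.0118) and 2.86-fold in SNL plus UNC0638 over Sham (log2 difference 1.67, SE 0.38, adjusted p = 0.00346). SNL plus UNC0638 differed from SNL by 0.43 (SE 0.38, adjusted p = 0.404), and by 0.55 without Sham replicate 3 and SNL replicate 3 (adjusted p = 0.0442).

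Emcn encodes endomucin, a surface glycoprotein of capillary and venous endothelium. It had 164, 144 and 203 scaled counts in SNL plus UNC0638, 285, 205, 131 and 202 in SNL, and 181, 194, 101 and 148 in Sham. The 3 groups overlapped, and replicate 3 was the lowest library of both SNL and Sham. No comparison was called: SNL minus Sham was 0.39 (95% interval -0.16 to 0.94, adjusted p = 0.220), and SNL plus UNC0638 minus SNL was -0.23 (adjusted p = 0.529).

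Egfl7 encodes a secreted protein of the vessel wall that guides sprouting endothelial cells. It had 238, 322 and 233 scaled counts in SNL plus UNC0638, against 149.6, 129, 99.9 and 204 in SNL and 109.9, 134, 108 and 122 in Sham. As with Flt1, the SNL plus UNC0638 libraries lay above all others, and the SNL and Sham libraries overlapped. Egfl7 was 1.81-fold higher with UNC0638 than in SNL (log2 difference 0.89, SE 0.22, adjusted p = 0.0131) and 2.23-fold higher than in Sham (adjusted p = 0.00146). The adjusted p against SNL was 0.0614 when replicate 2 of SNL plus UNC0638 was left out. The ligation difference was 0.26 (95% interval -0.19 to 0.70, adjusted p = 0.318).

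**Figure D2:**
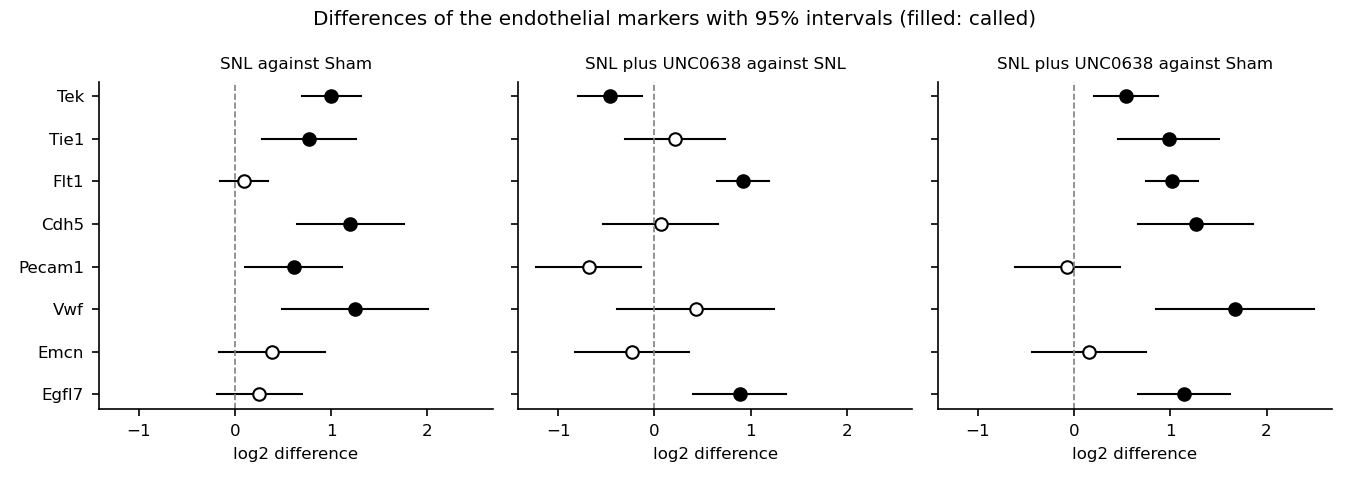
Log2 differences of the 8 markers with 95% intervals in the 3 comparisons (x axis, log2 of scaled count + 1). All 8 points of SNL against Sham lie right of 0; in SNL plus UNC0638 against SNL, Flt1 (0.92), Egfl7 (0.89) and Tek (-0.46) are the called markers.

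Markers were also counted by whether the libraries of both groups overlapped. Between SNL and Sham, 2 of the 8 markers (Tek and Cdh5) had no overlap, both above Sham. Of all tested genes 43.3% had none (22.1% above, 21.2% below), so the markers' share above was near that of all genes. Between SNL plus UNC0638 and SNL, 3 markers had none (Flt1 and Egfl7 above, Tek below), beside 37.6% of all genes (17.7% above, 19.9% below). Between SNL plus UNC0638 and Sham, 6 markers lay above with no overlap, beside 48.4% of all genes (23.4% above, 24.9% below). The comparisons share libraries, so their differences are not independent of each other. Without Sham replicate 3 and SNL replicate 3, 5 markers were called higher and 0 lower in SNL against Sham, 3 and 2 in SNL plus UNC0638 against SNL, and 6 and 0 in SNL plus UNC0638 against Sham. Calls over all genes also became more frequent without them, at 54.9%, 44.3% and 60.7% of 12051 genes, beside 48.2%, 27.8% and 51.5% with them. Leaving out the library with high muscle genes, replicate 1 of SNL plus UNC0638, gave 5 and 0, 2 and 0, and 6 and 0, beside 48.9%, 20.6% and 52.0% of all genes called.

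Ratios of markers within a library were chosen after the values were seen and are given without a test. Flt1 over Tek and Egfl7 over Tek set markers called higher with UNC0638 over the marker called lower. Their separation between SNL plus UNC0638 and SNL follows from those calls and adds no support to them. Flt1 over Tek was 1.28, 0.833 and 0.967 in SNL plus UNC0638, 0.332, 0.449, 0.420 and 0.357 in SNL, and 0.691, 0.660, 0.863 and 0.713 in Sham. The ratio was thus lowest in the SNL libraries and did not overlap with Sham. That separation follows from the higher Tek in SNL, with Flt1 in a shared range, and adds no support to the Tek call. Egfl7 over Tek was 0.542, 0.533 and 0.421 in SNL plus UNC0638, 0.168, 0.199, 0.145 and 0.290 in SNL, and 0.260, 0.362, 0.315 and 0.378 in Sham. Here SNL replicate 4 reached the Sham range. Vwf over Emcn was 6.21, 11.34 and 4.97 in SNL plus UNC0638, 2.41, 3.71, 8.68 and 5.05 in SNL, and 1.44, 1.38, 8.54 and 2.14 in Sham. Replicate 3 was the highest library of both SNL and Sham in this ratio. Cdh5 over Pecam1 was 5.89, 11.29 and 16.2 in SNL plus UNC0638, 4.47, 5.41, 6.74 and 8.26 in SNL, and 3.28, 3.44, 7.41 and 3.23 in Sham. The groups overlapped through SNL plus UNC0638 replicate 1 and Sham replicate 3.

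**Figure D3:**
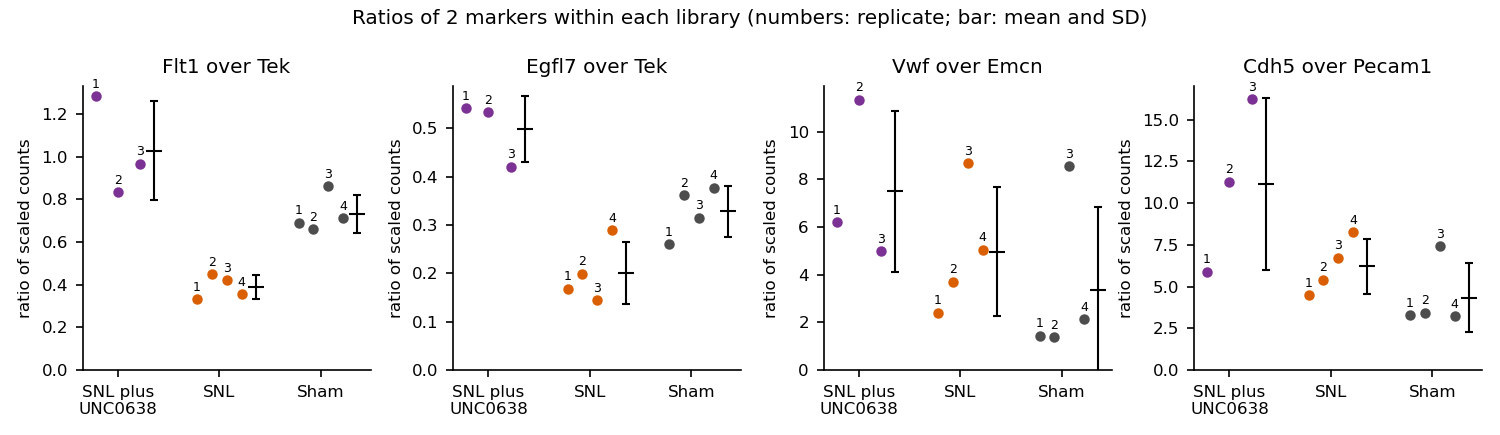
Ratios of scaled counts of marker pairs within each library by group (points are libraries, bars mean and SD). The 3 SNL plus UNC0638 libraries hold the highest Egfl7 over Tek ratios (0.421 to 0.542); the lower SD arm of Vwf over Emcn in Sham is cut at 0.

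To describe how the markers follow each other, each was centred on its mean log2 value over the 11 libraries, and profiles were compared by their root mean square distance. Tie1 (0.26) and Tek (0.29) lay closest to the mean profile of the 8 markers and Vwf (0.56) farthest. The closest pairs were Pecam1 with Emcn (0.33) and Flt1 with Egfl7 (0.35), and the most distant was Vwf with Emcn (1.01). Among all other tested genes the profiles nearest to the marker mean were those of Cpsf4 (0.073), Mylk (0.088), Galns (0.103), Akt2 (0.106) and Kdm2b (0.107). Mylk encodes the myosin light chain kinase. These genes were picked for their likeness over the same libraries, so their differences between groups are not given as tests.

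Promoter windows from RefSeq (build GRCr8, 250 bases before to 50 after the gene start) were held for 6 of the 10 markers. Endothelial genes are known to be read by ETS factors, whose core is GGAA or GGAT. Only the longer stretch GGAAG, or CTTCC on the other strand, was searched and is shown in capitals. Other stretches with the core were not counted. A window of Flt1 and 1 of the 2 windows of Egfl7, the markers that rose with UNC0638 over SNL, are printed. Those of Tie1 and Emcn, which were not called in that comparison, are printed after them. The printed windows lie at chr12:12333180-12333479 (plus strand), chr3:29805381-29805680 (plus), chr5:137304932-137305231 (minus) and chr2:228564289-228564588 (plus), in this order.
Flt1: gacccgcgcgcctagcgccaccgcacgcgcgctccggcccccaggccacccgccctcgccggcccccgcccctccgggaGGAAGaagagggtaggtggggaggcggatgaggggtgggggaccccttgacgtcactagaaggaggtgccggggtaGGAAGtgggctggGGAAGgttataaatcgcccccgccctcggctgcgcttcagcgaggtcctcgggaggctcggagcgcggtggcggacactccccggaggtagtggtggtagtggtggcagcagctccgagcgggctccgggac
Egfl7: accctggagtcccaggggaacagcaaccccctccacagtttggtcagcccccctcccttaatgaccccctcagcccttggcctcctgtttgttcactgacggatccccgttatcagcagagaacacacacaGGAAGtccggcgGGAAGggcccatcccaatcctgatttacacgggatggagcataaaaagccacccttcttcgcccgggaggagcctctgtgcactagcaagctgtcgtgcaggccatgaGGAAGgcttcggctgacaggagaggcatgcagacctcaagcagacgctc
Tie1: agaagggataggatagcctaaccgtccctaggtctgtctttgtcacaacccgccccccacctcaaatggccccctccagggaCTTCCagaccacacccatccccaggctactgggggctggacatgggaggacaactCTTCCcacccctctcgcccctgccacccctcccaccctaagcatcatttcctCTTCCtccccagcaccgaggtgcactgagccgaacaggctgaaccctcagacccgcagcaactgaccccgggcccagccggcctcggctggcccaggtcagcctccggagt
Emcn: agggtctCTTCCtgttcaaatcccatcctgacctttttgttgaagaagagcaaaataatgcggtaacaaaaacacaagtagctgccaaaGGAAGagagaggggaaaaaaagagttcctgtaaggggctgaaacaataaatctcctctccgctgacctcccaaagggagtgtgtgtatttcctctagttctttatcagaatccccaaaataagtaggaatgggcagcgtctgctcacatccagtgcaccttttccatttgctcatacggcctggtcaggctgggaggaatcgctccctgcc
GGAAG or CTTCC occurs 3 times in each of the printed windows of Flt1, Egfl7 and Tie1 and 2 times in that of Emcn. Egfl7 has a second window, chr3:29808051-29808350 (plus strand), which holds 0 such matches and is not printed. In all, 5 of the 7 marker windows have a match, and 70.1% of the 33469 windows of the table do. The markers' share is thus near that of all windows. AGATAA, the letters of GATA factors, is in none of the 7 marker windows, against 11.6% of all windows. ACAAT, the letters of SOX factors, is in 2 of the 7, against 33.7%. Both strands were searched, and no GGAAG or CTTCC overlapped these letters. The windows belong to a later build than the data, and the matches describe letters, not binding.

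The ligands of the VEGF receptors were read beside Flt1, from a list of VEGF, angiopoietin and Notch genes (22 named, 19 tested). In SNL plus UNC0638 against SNL, 6 of the 19 rose and 1 fell, beside 13.5% and 14.3% of all tested genes. Vegfa, the main growth factor of endothelium, had 937, 941 and 735 scaled counts in SNL plus UNC0638, 362, 350.2, 439 and 430 in SNL, and 586, 651, 605 and 606 in Sham. The groups did not overlap and SNL was the lowest. Vegfa fell in SNL against Sham by 0.63 (SE 0.12, adjusted p = 0.00114) and was 1.14 higher with UNC0638 than in SNL (SE 0.13, adjusted p = 0.000339). Vegfb, a ligand of VEGFR1, averaged 732 ± 144 in SNL plus UNC0638 (SD, n = 3), 312 ± 51.4 in SNL and 361 ± 49.4 in Sham (SD, n = 4 each). It rose with UNC0638 over SNL by 1.22 (adjusted p = 0.00104). Pgf, placental growth factor, a ligand of VEGFR1, averaged 64.3 ± 15.03 in SNL plus UNC0638, 32.8 ± 5.43 in SNL and 88.6 ± 16.4 in Sham. It fell in SNL against Sham by 1.40 and was 0.94 higher in SNL plus UNC0638 than in SNL (adjusted p = 0.0125). All 3 ligands and Flt1 were thus higher with UNC0638 than in SNL; Notch1, Notch4 and Esm1 were the other members called higher and Hey1 the member called lower. In SNL against Sham the list had 3 called higher and 4 lower, beside 24.8% and 23.4% of all tested genes. In SNL plus UNC0638 against Sham it had 7 and 3, beside 25.5% and 26%. Without Sham replicate 3 and SNL replicate 3 these counts were 5 and 4, and 11 and 2, where 54.9% and 60.7% of all genes were called.

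Flt4, the VEGFR3 receptor of lymphatic and sprouting endothelium, averaged 109 ± 26.6 in SNL plus UNC0638, 163 ± 40.1 in SNL and 37.6 ± 28.0 in Sham. It rose in SNL over Sham by 2.27 (adjusted p = 0.000578), and its difference of -0.57 between SNL plus UNC0638 and SNL was not called (adjusted p = 0.298). Of other endothelial surface and junction genes, 10 of the 15 tested rose and none fell in SNL against Sham (median 0.67), beside 24.8% and 23.4% of all tested genes. In SNL plus UNC0638 against SNL, Nos3, Robo4 and Aplnr rose and Ramp2 fell, beside 13.5% and 14.3%. Nos3, the nitric oxide synthase of endothelium, averaged 219 ± 72.1 in SNL plus UNC0638, 72.3 ± 9.47 in SNL and 48.8 ± 13.5 in Sham. It was 1.55 higher with UNC0638 than in SNL (adjusted p = 0.00209), and its ligation difference of 0.59 was not called (adjusted p = 0.0601). Of 12 endothelial transcription factors, 7 were called higher and none lower in SNL against Sham, beside 24.8% and 23.4% of all tested genes. Between SNL plus UNC0638 and SNL, limma called 0 in either direction (0 higher and 1 lower at an unadjusted p under 0.05), beside 13.5% and 14.3%. Without Sham replicate 3 and SNL replicate 3, 1 was called higher and 1 lower there, beside 23.1% and 21.2% of all genes. Their median difference was 0.90 between SNL and Sham and 0.07 between SNL plus UNC0638 and SNL. Ets1 averaged 626 in SNL plus UNC0638, 609 in SNL and 268 in Sham.

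Adhesion molecules that activated endothelium displays to leukocytes had median differences of 1.66 in SNL against Sham and 1.39 in SNL plus UNC0638 against SNL. Selp, P-selectin, which is stored with von Willebrand factor, had 416, 1180.4 and 422 scaled counts in SNL plus UNC0638, 158, 86.2, 82.6 and 87.6 in SNL, and 15.3, 25.0, 46.7 and 27.7 in Sham. The 3 groups did not overlap. It rose in SNL over Sham by 1.87 and in SNL plus UNC0638 over SNL by 2.56 (adjusted p = 0.00244 and 0.00205). Sele, E-selectin, averaged 49.8 ± 13.7 in SNL plus UNC0638, 12.7 ± 4.17 in SNL and 3.29 ± 1.03 in Sham, where every library lay below the filter value of 10. It was 1.66 higher in SNL than in Sham (adjusted p = 0.00139) and 1.89 higher in SNL plus UNC0638 than in SNL (adjusted p = 0.00293). Of the 5 adhesion genes tested, 4 rose in SNL against Sham, 3 in SNL plus UNC0638 against SNL and 5 in SNL plus UNC0638 against Sham, and none fell. Of all tested genes, 24.8%, 13.5% and 25.5% rose in these comparisons. Without Sham replicate 3 and SNL replicate 3, all 5 rose in SNL plus UNC0638 against SNL, where 44.3% of all genes were called, beside 27.8% with them.

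**Figure D4:**
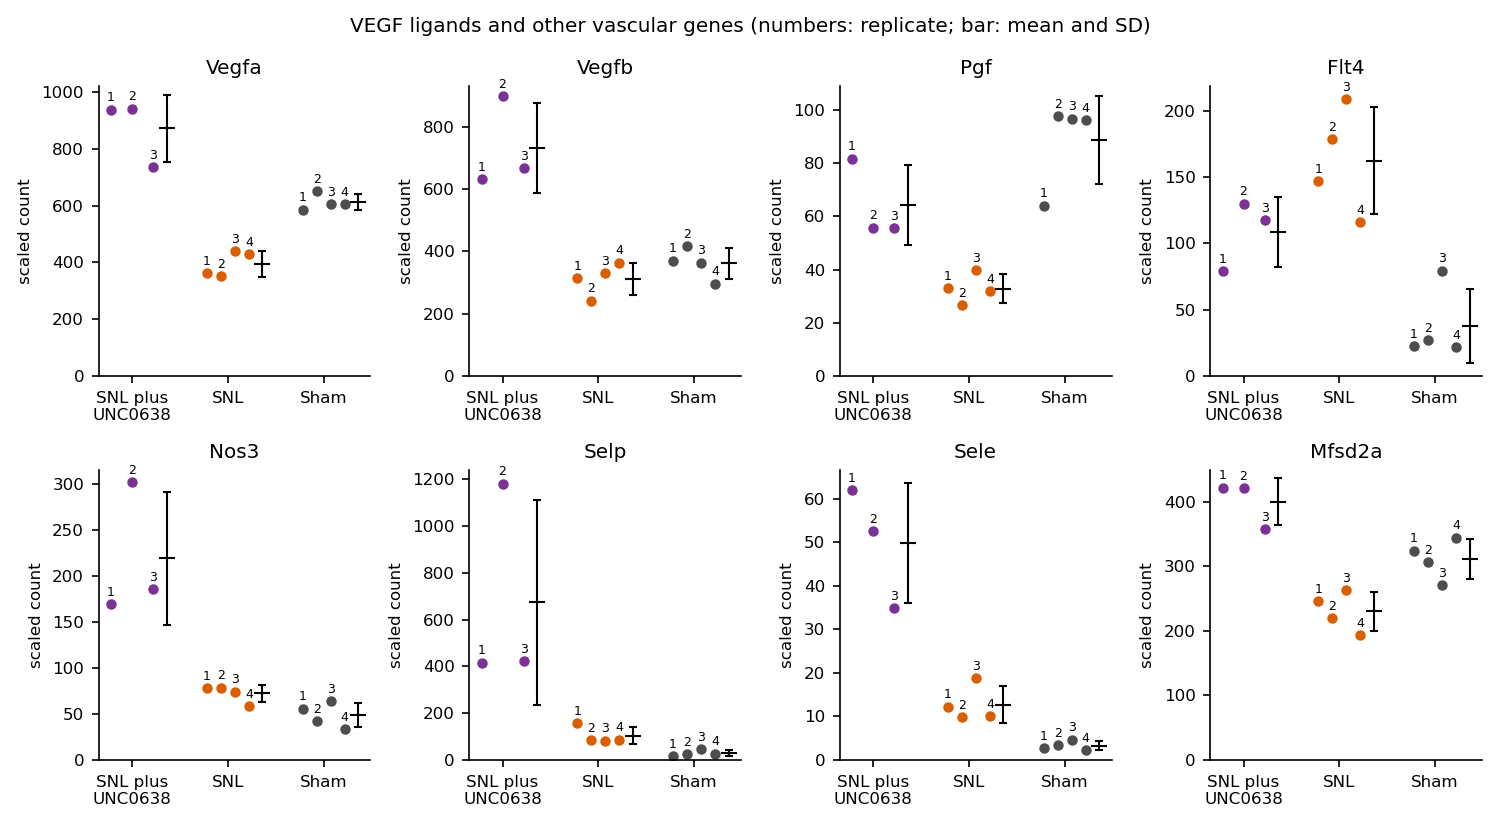
Scaled counts (y axis) of Vegfa, Vegfb, Pgf, Flt4, Nos3, Selp, Sele and Mfsd2a in each library of SNL plus UNC0638 (n = 3), SNL (n = 4) and Sham (n = 4), with mean and SD. Vegfa is lowest in the 4 SNL libraries, and Selp and Sele are highest in SNL plus UNC0638.

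Lists of genes of other cells were read beside the markers. Of all tested genes, 24.8% rose and 23.4% fell in SNL against Sham, and 13.5% and 14.3% in SNL plus UNC0638 against SNL. Without Sham replicate 3 and SNL replicate 3, the shares in SNL plus UNC0638 against SNL were 23.1% and 21.2%. With SNL plus UNC0638 replicate 1 left out too they were 22.4% and 21.3%, and 9.7% and 10.9% with that library alone left out. Of 12 mural cell genes, which mark pericytes and vessel muscle, 8 rose and none fell in SNL against Sham, and 4 rose and 1 fell in SNL plus UNC0638 against SNL (4 and 0 without SNL plus UNC0638 replicate 1). Platelets also hold Vwf, Pecam1 and Selp: their marker list summed to 63.4 to 70.0 in SNL plus UNC0638, 32.7 to 64.9 in SNL and 22.3 to 29.5 in Sham. Pf4 and Gp1ba were the 2 tested of 9. Pf4 rose in SNL over Sham by 0.84 (adjusted p = 0.0241) and was not called in SNL plus UNC0638 against SNL. Gp1ba was not called in SNL against Sham and rose in SNL plus UNC0638 over SNL by 1.66 (adjusted p = 0.0152). Its values were at most 6.01 in SNL and 7.69 in Sham, below the filter value of 10. Both were called higher in SNL plus UNC0638 against Sham, where 25.5% of all tested genes rose. The platelet gene Ppbp was at 0 in all 11 libraries, like Cldn5, which is not read as absence. Red blood cell genes summed to 250.3 to 582 in SNL plus UNC0638, 763 to 2143 in SNL and 777 to 1626 in Sham, and 4 of the 5 tested fell with UNC0638 against SNL, among them Hba1 by 2.70 (adjusted p = 0.00149). Macrophage genes summed to 3790.2 to 5981 in SNL plus UNC0638, 3539 to 5203 in SNL and 1089.8 to 2256 in Sham, with 7 of 8 called higher in SNL against Sham and 2 higher and 0 lower in SNL plus UNC0638 against SNL (median 0.68; 5 higher without Sham replicate 3, SNL replicate 3 and SNL plus UNC0638 replicate 1, a setting chosen after seeing the data). Fibroblast genes summed to 39226 to 95458 in SNL plus UNC0638, 86746 to 217931 in SNL and 24358 to 34941 in Sham; 6 of 7 rose in SNL over Sham and 3 of 7 fell in SNL plus UNC0638 against SNL (1 rose and 4 fell without Sham replicate 3 and SNL replicate 3, and 1 rose and 1 fell without SNL plus UNC0638 replicate 1). Dividing cell genes rose for 6 of 7 in SNL against Sham. In SNL plus UNC0638 against SNL limma called 0 of the 7 (2 lower at an unadjusted p under 0.05, and 3 called lower without Sham replicate 3 and SNL replicate 3), and all 7 differences were negative, with a median of -0.55. Mki67 averaged 374 in SNL plus UNC0638, 384 in SNL and 95.5 in Sham, and Top2a 167 in SNL plus UNC0638, 309 in SNL and 46.5 in Sham. Of 7 sensory neuron genes, 5 fell and 1 rose in SNL against Sham. Of 7 Schwann and satellite cell genes, 2 rose and 1 fell in SNL against Sham and 2 fell with UNC0638 against SNL; of 6 muscle genes tested, limma called 0 in those comparisons (0 and 1 at an unadjusted p under 0.05). All 7 axon injury genes rose in SNL over Sham and fell in SNL plus UNC0638 against SNL, there with a median difference of -2.56, and of -1.65 without SNL plus UNC0638 replicate 1. In that library Atf3, a factor induced in injured neurons, had 265 scaled counts, against 1802 and 2393 in replicates 2 and 3. The part of these cells in the levels of the endothelial markers was not tested.

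**Figure D5:**
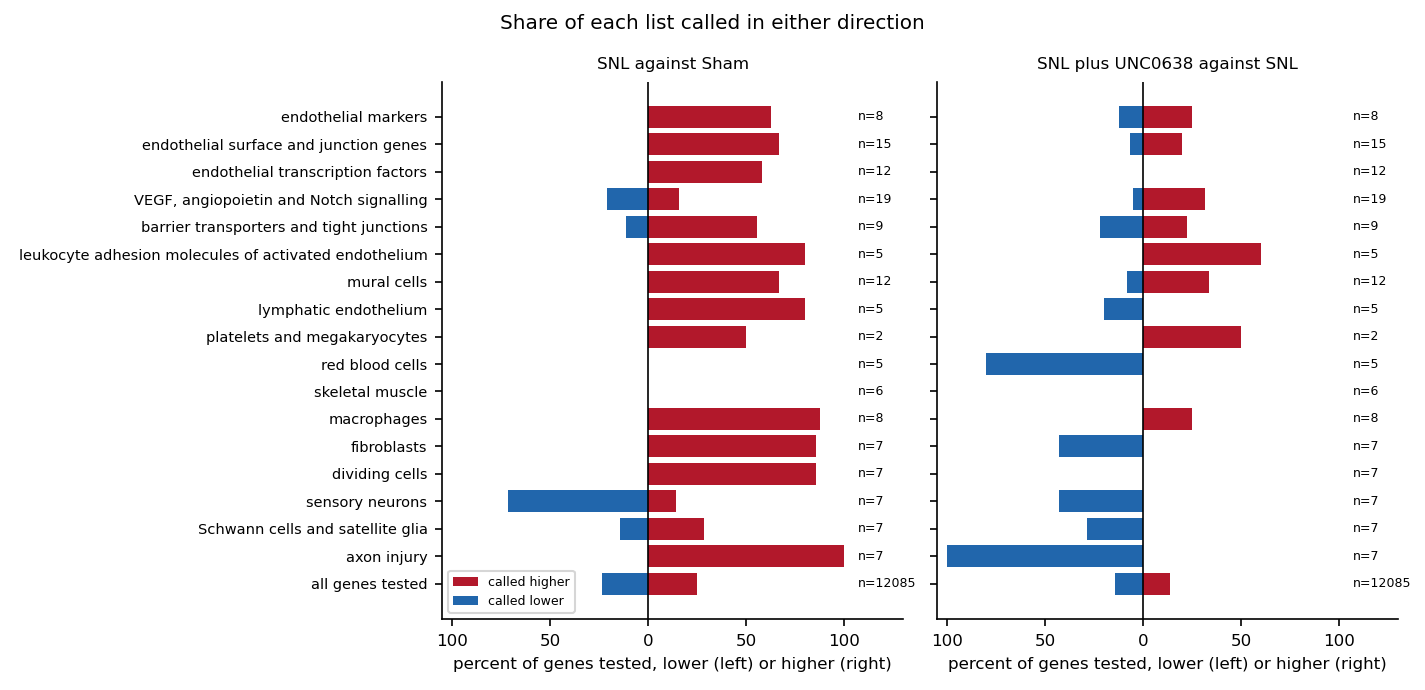
Percent of the tested genes of each list called higher (right) or lower (left), with the number tested beside each bar. The 2 panels are SNL against Sham and SNL plus UNC0638 against SNL. Endothelial markers have 5 higher and 0 lower of 8 in SNL against Sham, and 2 and 1 in SNL plus UNC0638 against SNL.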

How the data were processed

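Total RNA of rat dorsal root ganglia was sequenced in 11 libraries. The signal values that the authors deposited are read counts per gene brought to 1 library size, judging by the labels and the values; raw counts were not used here. Per the submitters' processing notes, TopHat2 2.0.9, Cuffdiff 2.1.1 and the build rn4 were used; the annotation, strand use and handling of shared reads are not stated there or in the labels. Within 0.01 steps, 98.9% to 99.4% of a library's values under 40 were whole multiples of its step (0.429 to 1.56), taken as the value of 1 read. The reads are an estimate and cover counting error only.

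The genes that reached a value of 10 in 3 or more libraries were fitted with limma 3.58.1 (R 4.3.3, statmod 1.5.0; eBayes with trend and robust) on log2(value + 1); all 11 libraries entered, each group with its own mean. Fold changes are ratios of group means, SE is that of the fit, tests were two-sided, and Benjamini-Hochberg adjustment ran over all 12085 genes. Differences on this scale understate changes of low genes. Sdc2 and Pcdhgc5 were dropped because of values seen in the table (each at 0 in a whole group). The fit was tested on simulated data, drawn independently for each library around Sham means. Departures shared between libraries were not simulated, so that test does not show how the fit handles them. The members and gene lists were chosen with earlier results of these data known. Genes named were taken from all markers; per other list the called genes with the smallest p in SNL against Sham or SNL plus UNC0638 against SNL, up to 3, or 4 for the VEGF list, or the 2 most abundant where none was called; and the 5 nearest profiles. Robo4, Aplnr, Ramp2, Notch1, Notch4, Esm1, Hey1, Ppbp and the tested platelet genes were named after their values were seen. Alternatives covered pseudocounts, scalings, filters, spread, groups in the fit, libraries left out, a replicate block and the threshold. Replicate numbers were not taken as pairs.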

Additional observations from a re-analysis of the deposited data

Results flagged for a closer look

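Vwf in Sham stood out for a library far from the others: replicate 3 had 865 scaled counts, and the next highest Sham library 315, so that this gap took 0.909 of the group's whole range. Flt1 in SNL had a low library, replicate 4 at 252 scaled counts, against 289 for the next lowest, a gap of 0.857 of the range. In groups of 4, gaps above Dixon's 95% critical value were picked out; 16 groups were looked at and 2 were picked, where chance picks about 1 in 20. Without Sham replicate 3 and SNL replicate 3, Vwf kept its call in SNL against Sham, and Flt1 was called in SNL plus UNC0638 against SNL with each library left out in turn.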

How the results depend on the processing

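Of 624 marker results under 26 alternatives per comparison, 579 kept their direction and side of the threshold, 28 lost a call, 6 gained one and 11 changed sign; limma-voom used estimated reads, and edgeR and DESeq2 were not run because the values are not counts. In SNL against Sham, 5 markers called higher became 2 at an adjusted p under 0.01, and were 4 to 5 when a library was left out (median difference 0.62 to 0.85). In SNL plus UNC0638 against SNL, 2 called higher became 1 at that threshold and 1 to 3 with a library left out (median 0.00363 to 0.29). The 1 called lower, Tek, became 0 with equal library totals, limma-voom, only the groups compared, the replicate block (-0.50, adjusted p = 0.0759) and the stricter threshold, was 0 to 2 with a library left out, and became 2 without Sham replicate 3 and SNL replicate 3. In SNL plus UNC0638 against Sham, 6 called higher were 5 to 6 with a library left out, and the median of 1.00 (0.89 to 1.10) moved to 1.19 with equal totals and 1.21 with limma-voom. Cdh5 in SNL plus UNC0638 against SNL (0.07) spanned -0.0653 to 0.31 with a library left out and was -0.06 without both replicates 3. Against Sham, Pecam1 (-0.07) was 0.12 with equal totals, 0.13 with limma-voom and -0.23 to 0.13 with a library left out; Emcn (0.15) was -0.04 without both replicates 3, -0.0198 when SNL plus UNC0638 replicate 1 was also left out (chosen after seeing the data), and -0.0386 to 0.27 with a library left out. The cause was not tested.

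Equal totals moved the median of all genes by 0.10, 0.09 and 0.19 in the 3 comparisons, and the share of calls that were higher to 61.2%, 66.5% and 67.1%, against 51.4%, 48.6% and 49.6% (59.9%, 68.4% and 67.1% with limma-voom). Deviations of same-numbered libraries correlated across genes at -0.446 to -0.085 (SNL plus UNC0638 and SNL) and 0.0045 to 0.431 (SNL and Sham), so that numbers did not pair libraries; with the replicate block, 2126 of all genes were called in SNL plus UNC0638 against SNL, against 3356 without it and 2032 (without SNL plus UNC0638 replicate 2) to 4468 (without Sham replicate 3) with a library left out. Without Sham replicate 3 and SNL replicate 3 it was 5341, and 5220 without SNL plus UNC0638 replicate 1 too. At an adjusted p under 0.01 the counts of all genes in the 3 comparisons, in the order above, were 3780, 1304 and 4129, against 5823, 3356 and 6220. Pecam1 had as few as 29 estimated reads in a library.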

Other observations

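Barrier genes of vessels, which hold transporters and tight junction proteins, had 5 called higher and 1 lower of 9 tested in SNL against Sham. They had 2 higher and 2 lower in SNL plus UNC0638 against SNL (2 and 1 without SNL plus UNC0638 replicate 1), and 6 and 1 in SNL plus UNC0638 against Sham. Of all tested genes, 24.8% and 23.4%, 13.5% and 14.3%, and 25.5% and 26% were called higher and lower in these comparisons. Without SNL plus UNC0638 replicate 1, 9.7% and 10.9% were called higher and lower in SNL plus UNC0638 against SNL. Mfsd2a, a lipid transporter of barrier endothelium, averaged 399.9 ± 36.9 scaled counts in SNL plus UNC0638 (SD, n = 3), 230.2 ± 30.4 in SNL and 312 ± 31.0 in Sham (SD, n = 4 each). It fell in SNL against Sham by 0.44 (adjusted p = 0.0144) and was 0.80 higher with UNC0638 than in SNL (adjusted p = 0.00239); its call against Sham with UNC0638 (0.36, adjusted p = 0.0458) was lost in 7 of the fits that left out a library (replicate 1 or 2 of SNL plus UNC0638 or of SNL, or 1, 2 or 3 of Sham). Tjp1, a scaffold of tight junctions in many cells, averaged 2088 in SNL plus UNC0638, 2420.4 in SNL and 1086 in Sham, and was 1.16 higher in SNL than in Sham. Slc2a1, a glucose transporter, was 0.80 higher in SNL than in Sham (adjusted p = 0.00173).

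Of 5 lymphatic endothelium genes, Lyve1, Pdpn, Flt4 and Ccl21 rose in SNL over Sham, where 24.8% of all tested genes rose and 23.4% fell. Ccl21 spanned 8.45 to 197.9 scaled counts in Sham and 87.9 to 191.9 in SNL. Its Sham replicate 3 lay above every SNL library. Pdpn fell in SNL plus UNC0638 against SNL by 0.41 (adjusted p = 0.0285), where 13.5% of all tested genes rose and 14.3% fell. That call was lost without replicate 1 or 2 of SNL plus UNC0638 or of SNL. Flt4 and Ccl21 were called higher in SNL plus UNC0638 against Sham, where 25.5% of all tested genes rose and 26% fell. Flt4 is also in the VEGF list, and Ccl21 was named after its values were seen. Lyve1 averaged 91.9 scaled counts in SNL and 47.1 in Sham.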
